A study of Mus musculus with 2 samples.

Results

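The cornified envelope genes were taken as every gene whose symbol begins with Sprr or Lce, together with 16 others listed for their role in envelope formation. This rule found 52 genes in each library, of 31054 features in the normal matrix and 32285 in the wounded matrix. The rule uses no expression value, but the members were chosen with earlier results of these data known. Single-cell RNA sequencing had been run on the anorectal junction of the mouse, where the stratified epithelium of the anal canal meets the glandular rectum at a transition zone (TZ). Both libraries came from K17CreERT2;R26RGFP mice on the C57/BL6J background, which carry a tamoxifen-inducible Cre driven by the Krt17 promoter and a green fluorescent reporter at the Rosa26 locus. The normal library (Normal_TZ) held unwounded tissue and the wounded library (Wounded_TZ) held tissue collected 1 week after an EDTA wound, in which hot EDTA and abrasion remove the rectal crypts beside the TZ. Mice of both groups received tamoxifen, with 2 injections stated for the wounded mice, and those wounded in the study were 2 to 4 months old. Cells of at least 5 pooled animals were sorted by Epcam, an epithelial surface protein, and by the reporter. Cells with CD45, CD11b, CD31 or PDGFRa were excluded in the sort. Each condition was thus 1 library of pooled mice, no test between conditions was possible, and every interval below covers counting error only.

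Keratinocytes leaving the basal layer of a stratified epithelium build the cornified envelope beneath their membrane as they die. Small proline-rich (SPRR) and late cornified envelope (LCE) proteins, involucrin, loricrin and cornifelin are its building blocks, transglutaminases crosslink them, and filaggrin and its relatives bundle keratin. Wet epithelia such as the oral cavity, oesophagus and anal canal use SPRR genes and keratins 4 and 13 more than dry epidermis, whose suprabasal cells carry keratins 1 and 10. SPRR genes are also known in glandular epithelium, where Sprr2a is induced by bacteria and by injury.

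Promoters of 5 members were read from RefSeq on GRCm38.p6, one for each of the patterns described below: the abundant Krtdap and Sprr1a, and Sprr1b, Cnfn and Sprr2d, which were almost confined to 1 or 2 clusters. Each is the 250 bases upstream of the listed start, with capitals marking the AP-1 motif TGANTCA and the TATA box TATAAA, each searched on both strands.
Krtdap: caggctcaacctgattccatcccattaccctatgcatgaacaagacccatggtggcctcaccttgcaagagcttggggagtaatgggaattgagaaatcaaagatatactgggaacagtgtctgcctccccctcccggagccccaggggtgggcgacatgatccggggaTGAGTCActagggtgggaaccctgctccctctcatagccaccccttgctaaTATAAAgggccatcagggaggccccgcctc
Cnfn: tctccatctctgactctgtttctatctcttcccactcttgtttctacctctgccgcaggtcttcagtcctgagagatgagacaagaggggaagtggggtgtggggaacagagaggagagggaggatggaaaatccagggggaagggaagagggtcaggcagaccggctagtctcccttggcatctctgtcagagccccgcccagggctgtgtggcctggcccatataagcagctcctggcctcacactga
Sprr1a: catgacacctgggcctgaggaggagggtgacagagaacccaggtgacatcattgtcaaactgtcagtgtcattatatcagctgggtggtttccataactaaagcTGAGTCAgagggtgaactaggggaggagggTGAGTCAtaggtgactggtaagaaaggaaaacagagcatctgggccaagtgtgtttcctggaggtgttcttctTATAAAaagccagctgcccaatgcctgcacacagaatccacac
Sprr1b: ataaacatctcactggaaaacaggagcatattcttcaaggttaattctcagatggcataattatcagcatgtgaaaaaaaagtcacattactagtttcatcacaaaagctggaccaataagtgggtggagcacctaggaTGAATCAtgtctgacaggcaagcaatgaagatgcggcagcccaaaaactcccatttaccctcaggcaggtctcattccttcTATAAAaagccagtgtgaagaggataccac
Sprr2d: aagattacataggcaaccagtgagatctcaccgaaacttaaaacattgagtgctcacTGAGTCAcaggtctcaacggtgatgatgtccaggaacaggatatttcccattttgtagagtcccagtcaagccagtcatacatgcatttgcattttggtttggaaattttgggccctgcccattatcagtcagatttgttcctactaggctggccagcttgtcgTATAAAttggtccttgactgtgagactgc
The windows lie at chr7:30787655-30787904 (plus strand, Krtdap), chr7:25369725-25369974 (minus, Cnfn), chr3:92485882-92486131 (minus, Sprr1a), chr3:92438780-92439029 (minus, Sprr1b) and chr3:92338890-92339139 (plus, Sprr2d). All but that of Cnfn held an AP-1 motif, which is the site of Jun and Fos family dimers, and a TATA box. Counting upstream from the base before the start, the AP-1 motif of Krtdap began at -81, that of Sprr1b at -111 and that of Sprr2d at -193, while Sprr1a had motifs at -146 and -116. Neither pattern of letters was present in the Cnfn window, but only these patterns were searched, and the window holds the near match tataag. Among the members, 48 matched RefSeq promoters, giving 51 windows, and AP-1 letters were present in 19 of them, or 37.3%, against 6.75% of all 32851 promoters. Every listed start was counted, so nearly coinciding windows of Dmkn each gave a match. Sprr2b, Sprr2d, Sprr2e, Sprr2f, Sprr2h, Sprr2i and Sprr2k, related genes of 1 family, each held both AP-1 letters and a TATA box. Their matches are therefore not independent of one another. The TATA box was present in 41.2% of the members' windows and 12.4% of all. The letters GGGTGG, bound by KLF factors, occurred in 31.4% and 28.1%, and GGAAGT, an ETS core, in 27.5% and 19.7%. Sprr1a and Sprr1b shared 142 identical bases on alignment (62.3% of aligned positions), more than any other pair of the 5 windows. The other pairs were not far below, at 47.7% to 59.4%. A match is a run of letters and no binding was measured.

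Cells carried the names that were deposited with them: 257 Basal, 187 Suprabasal, 432 Anal Canal and 63 Rectum cells in the normal library, and 573 Basal, 1032 Suprabasal, 991 Regeneration, 838 Wound_Stress, 316 Hybrid and 397 Rectum cells in the wounded one. Median depth was between 8437.5 and 12616 unique molecular identifiers (UMIs) per cell, except for 2390 in Hybrid cells. The libraries shared 1 barcode and none among the named cells. Some markers went against 2 of the wounded names. Wounded Basal cells held the basal keratins Krt14 (8434 UMIs per 1000000, CPM) and Krt5 (2770 CPM), but also the differentiation keratins Krt1 (2473 CPM), Krt10 (1987 CPM) and Krt13 (1443 CPM), against 17.4, 48.4 and 3.0 CPM in normal Basal cells. In normal Anal Canal cells these were at 2286, 2228 and 812 CPM. Wounded Suprabasal cells held less of them, with Krt1 at 98.7, Krt10 at 88.7 and Krt13 at 1.90 CPM. In normal Suprabasal cells these were at 448, 162 and 3.07 CPM. Against wounded Basal, 5 of 7 suprabasal markers were 2-fold or more lower and 0 higher (11.3% and 9.85% of all genes). Krt6a and Dsg1a were not past 2-fold. Against normal Suprabasal, 2 were lower (Krt1, Krt16) and 1 higher, Krt4 (5.63% and 16.2%). Krt14, at 5594 CPM in wounded Suprabasal cells, was not past 2-fold between the libraries. All clusters are therefore called by their deposited names only, and wounded Basal is set beside normal Anal Canal as well as normal Basal. Summed markers of fibroblasts, immune and endothelial cells reached at most 242 CPM in any named cluster. The sort and the authors' removal of a fibroblast cluster had already selected against such cells. Summed anal gland markers reached 2045 CPM in Regeneration and summed inner root sheath markers 1894 CPM in Hybrid cells. Rectum cells held the glandular genes Lgals4 (4395 CPM normal, 3755 CPM wounded) and Krt8 (2741 and 2386 CPM) in both libraries. Levels are UMIs per 1000000 of a cluster's summed UMIs, with exact Poisson 95% intervals. A 3' tag counts a molecule whatever its length, so levels were not divided by gene length. Levels of different genes can still differ in how uniquely their 3' ends are read, as given below for shared sequence.

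Members made up 79450 UMIs of the named normal cells and 183814 of the wounded cells. Of the 52 genes, 20 reached 100 UMIs in either library and are named with values, 26 were under 20 UMIs over both libraries, and 11 were at 0 in both. Nearly all the signal came from few roles. Secreted keratinocyte proteins (Krtdap, Sbsn, Dmkn) gave 51550 normal and 103439 wounded UMIs, the calmodulin-like Calm4 and Calml3 gave 17025 and 45610, and 15 SPRR genes gave 8843 and 30579. By contrast all 21 LCE genes stayed under 20 UMIs, summing to 3 and 28 UMIs, and 10 of them were at 0 in both libraries. The filaggrin family (Flg, Flg2, Hrnr, Rptn) summed to 19 and 194 UMIs. Thus LCE and filaggrin family transcripts were few or not detected at this depth, whereas SPRR and secreted transcripts were abundant. Most LCE genes also share sequence, as given below.

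**Figure D1:**
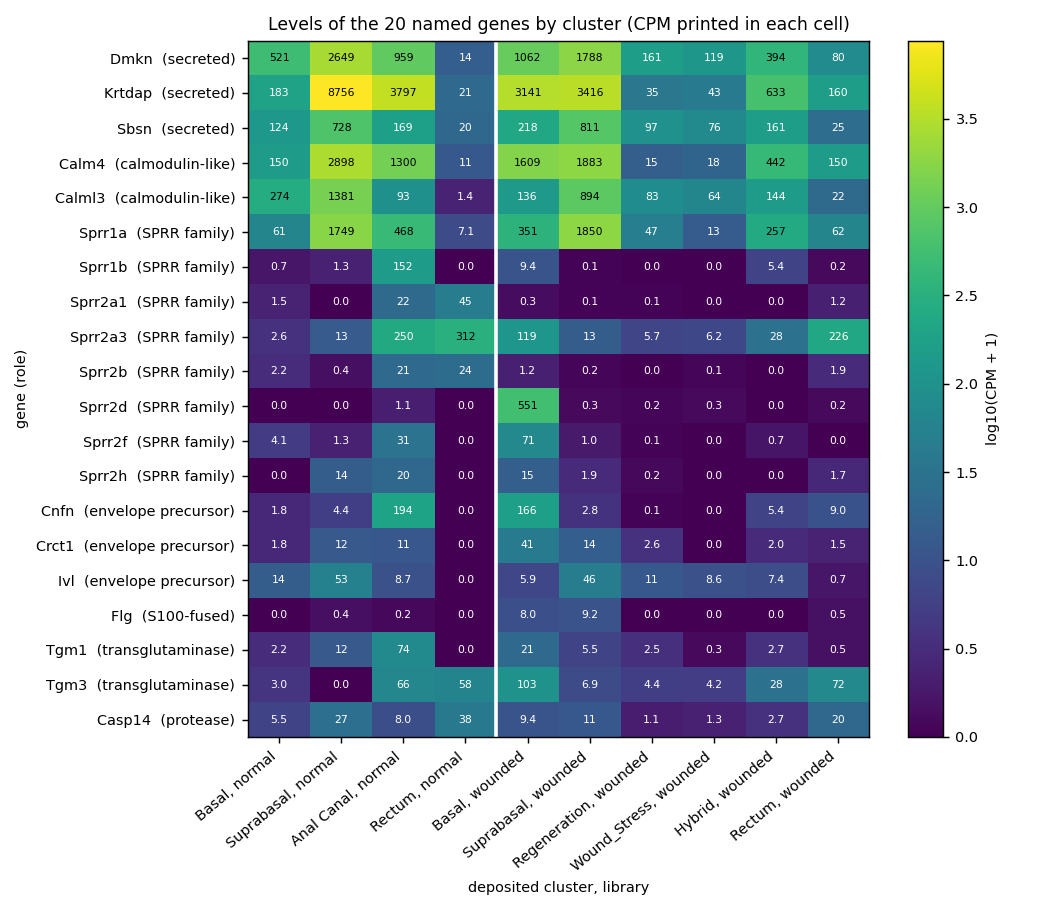
Levels of the 20 named cornified envelope genes (rows, with their roles) in the 4 normal and 6 wounded clusters (columns, parted by the white line), as CPM printed in each cell over a log10(CPM + 1) colour scale. Krtdap reached 8756 CPM in normal Suprabasal cells, and Sprr2d reached 551 CPM in wounded Basal cells and at most 1.14 CPM elsewhere.

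On mm10, 43 members lie in 1.32 Mb of chromosome 3 (chr3:92080271-93399442), the epidermal differentiation complex, and 4 on chromosome 7, where Sbsn, Dmkn and Krtdap sit within 39.6 kb (chr7:30751471-30791097). The other 5 (Calml3, Calm4, Tgm1, Tgm3, Casp14) are elsewhere. Neighbours within the complex differed in level. Sprr1b and Sprr1a, with Sprr3 between them, stood at 1.31 and 1749 CPM in normal Suprabasal cells, while the LCE genes between Ivl and Flg were at or near 0 in every cluster.

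**Figure D2:**
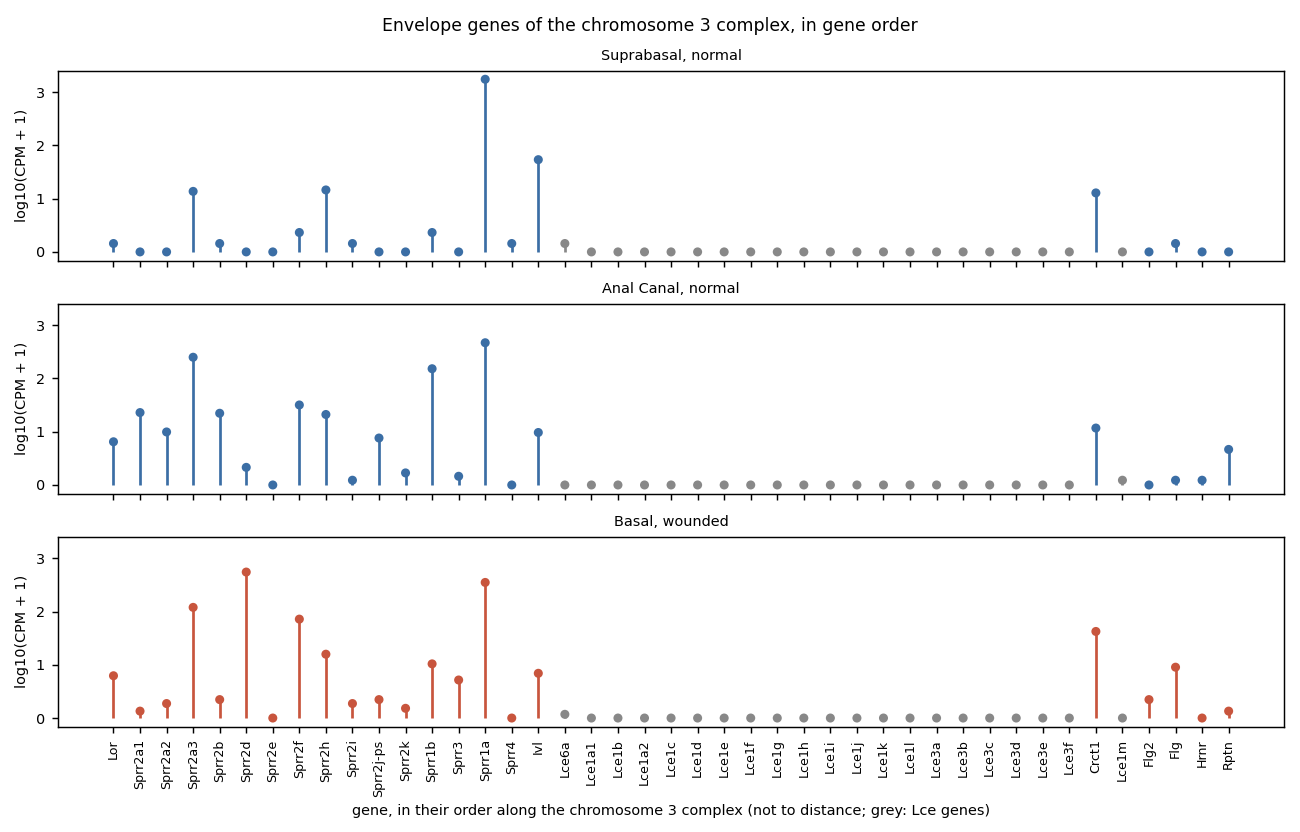
Levels, as log10(CPM + 1), of the 43 members on chromosome 3 in their order along the chromosome (not to distance), in 3 clusters, with LCE genes in grey. Normal Suprabasal cells show mainly Sprr1a, whereas the Sprr2 genes and Sprr1b are seen in normal Anal Canal cells and Sprr2d in wounded Basal cells.

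Near-identical copies limit what can be said of some SPRR and LCE genes. In the last 400 bases of the transcripts, all 50-base windows of Sprr2a1 and Sprr2a2 and 67.7% of those of Sprr2a3 also occur in another gene, and Sprr2a1 and Sprr2a2 overlap in exons. Sprr2b shares 13.7% of its windows with them. The counts of these genes are uncertain, and the 2 libraries were counted against feature sets of different size. No such window was shared by Sprr1a, Sprr1b, Sprr2d, Sprr2f, Sprr2h, Cnfn or Krtdap. Of the Sbsn windows 29.7% were shared with the overlapping Tmem147os, and reads there cannot be given to 1 gene. Most LCE genes also shared windows, up to 47.9% in Lce3d and 43.9% in Lce3c, while Lce1m and Lce6a shared none. The part of this in the low LCE counts was not tested.

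The first comparison asked which envelope genes distinguish Suprabasal from Basal cells of the unwounded TZ. Summed over all members, the level was 1355 CPM in Basal and 18300.5 CPM in Suprabasal cells. Krtdap, a secreted peptide of differentiating keratinocytes, stood at 183 CPM in Basal, 8756 CPM in Suprabasal, 3797 CPM in Anal Canal and 21.3 CPM in Rectum cells. Sprr1a, a crosslinked envelope precursor, stood at 61.0, 1749, 468 and 7.10 CPM in the same order. Both were thus highest in Suprabasal cells, with Anal Canal next and no overlap of intervals. The log2 ratio of Suprabasal to Basal was 5.58 (95% exact binomial interval 5.45 to 5.71) for Krtdap and 4.84 (4.62 to 5.07) for Sprr1a. Calm4, a calcium-binding protein of differentiating skin, stood at 150 CPM in Basal, 2898 in Suprabasal, 1300.1 in Anal Canal and 11.4 in Rectum cells. Calml3, its relative, stood at 274, 1381, 93.1 and 1.42 CPM. So the calmodulin-like genes parted outside the Suprabasal cluster, Calm4 being lower in Basal than in Anal Canal cells and Calml3 the reverse.

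Dmkn (dermokine) stood at 521 CPM in Basal, 2649 in Suprabasal, 959 in Anal Canal and 14.2 in Rectum cells, and Sbsn (suprabasin) at 124, 728, 169 and 19.9 CPM. Involucrin (Ivl), an early scaffold of the envelope, was at 13.7, 53.0 and 8.67 CPM and had no UMI in Rectum cells. Casp14, the protease that acts on filaggrin, was at 5.55, 26.7, 7.99 and 38.3 CPM, so that its level was no higher in Suprabasal than in Rectum cells. Of 12 members with at least 20 UMIs over both clusters, 12 were 2-fold or more higher in Suprabasal cells and 0 lower, against 6.57% of all 9682 genes higher and 17.1% lower. The median log2 ratio was 2.48 for these members and -0.29 for all genes. Some rested on 1 cell. One Suprabasal cell held 27 of the 31 Sprr2h UMIs, another 20 of the 29 Sprr2a3 UMIs, and another 11 of the 27 Crct1 UMIs. Clusters were formed by the authors from expression in the same cells, so these ratios describe the clusters and do not test them.

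**Figure D3:**
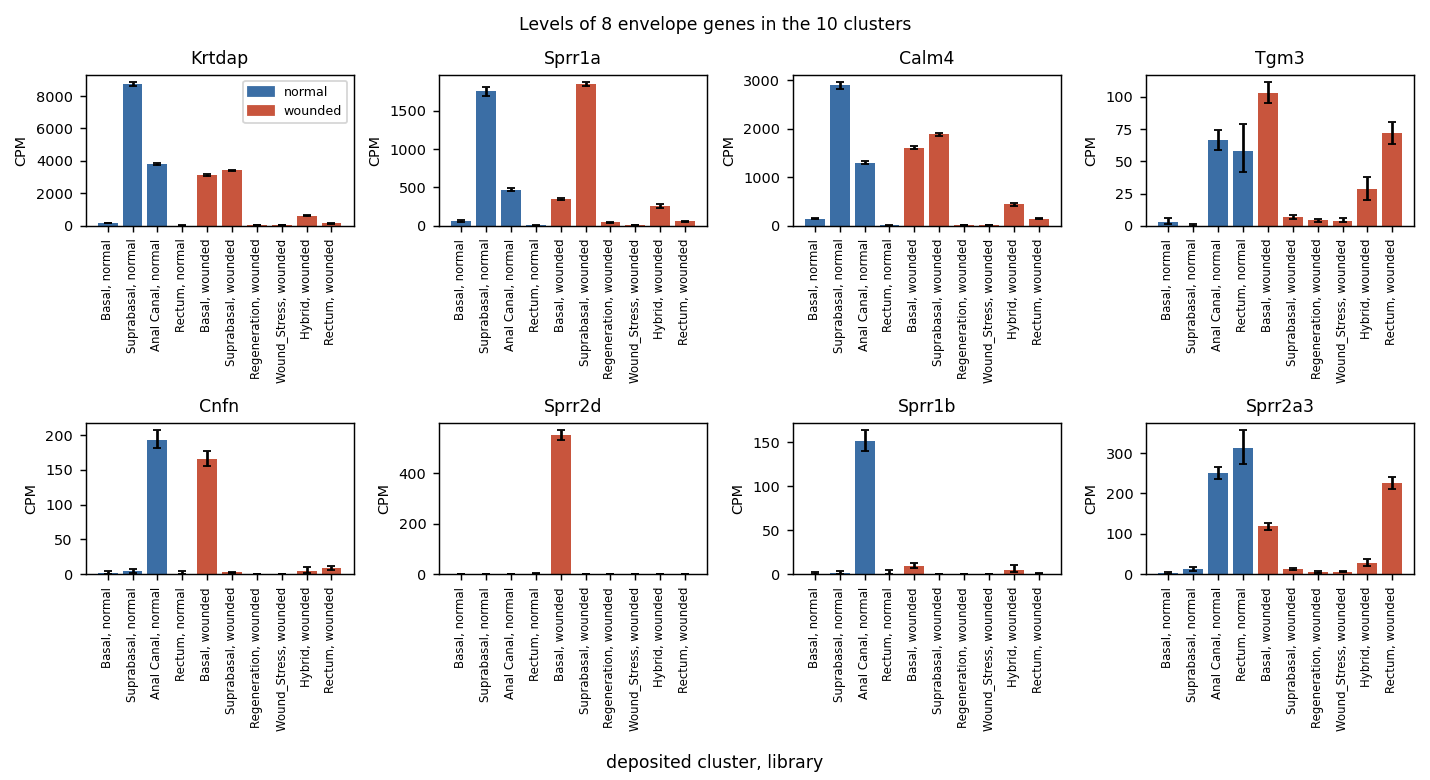
Levels (CPM, axes from 0 and scaled for each gene) of 8 cornified envelope genes in the 10 clusters, normal in blue and wounded in red, with exact Poisson 95% intervals. Krtdap, Sprr1a and Calm4 are high in Suprabasal cells of both libraries, Cnfn in normal Anal Canal and wounded Basal cells, Sprr2d in wounded Basal, Sprr1b in normal Anal Canal, and Sprr2a3 also in both Rectum clusters.

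Anal Canal cells of the normal library held a second set of members. Cornifelin (Cnfn) stood at 1.85 CPM in Basal, 4.38 CPM in Suprabasal and 194 CPM in Anal Canal cells. It had 0 UMIs in Rectum, where the exact Poisson interval reaches 5.24 CPM. Sprr1b stood at 0.74, 1.31 and 152 CPM, again with 0 UMIs in Rectum. Both were almost wholly in Anal Canal cells, with log2 ratios to Basal of 6.71 (5.48 to 8.34) and 7.68 (5.82 to 10.73). Sprr1a and Sprr1b thus had opposite orders. Sprr1a was lower in Anal Canal than in Suprabasal cells by a log2 ratio of -1.90 (-1.98 to -1.82), and Sprr1b was higher by 6.85 (5.30 to 9.13). Tgm1, the membrane transglutaminase of keratinocytes, stood at 2.22 CPM in Basal, 11.8 CPM in Suprabasal and 73.7 CPM in Anal Canal cells, with no UMI in Rectum. Tgm3, the soluble transglutaminase, stood at 2.96 CPM in Basal, 66.4 CPM in Anal Canal and 58.2 CPM in Rectum cells and had 0 UMIs in Suprabasal cells. Both crosslinking enzymes were therefore higher in Anal Canal than in Suprabasal cells. The envelope precursors and SPRR genes went both ways, Ivl and Sprr1a being lower and Cnfn, Lor, Sprr1b and several Sprr2 genes higher. Lor was low, however, at 4.82 CPM in Anal Canal and 8.76 CPM in Rectum cells, each without its top cell. It thus did not stand above Rectum.

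Against Basal, 16 of 21 members were 2-fold or more higher in Anal Canal cells and 1 lower (Calml3, log2 ratio -1.55), against 8.73% of all genes higher and 10.2% lower. Against Suprabasal, 11 of 21 were higher and 8 lower, against 19.8% and 8.48% of all genes. The 11 were Tgm1, Tgm3, Cnfn, Sprr1b, Lor and 6 Sprr2 genes. The 8 were Krtdap, Sbsn, Dmkn, Calm4, Calml3, Sprr1a, Ivl and Casp14. The secreted and calmodulin-like members called were thus all on the Suprabasal side and both transglutaminases on the Anal Canal side, while SPRR genes and envelope precursors were on both. Summed member level was 7670.5 CPM in Anal Canal cells, below that in Suprabasal cells.

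Shares of cells showed how far each gene was spread. After each cell was thinned to 2000 UMIs, Krtdap was found in 20% of Basal, 86.3% of Suprabasal and 82.1% of Anal Canal cells, against 6.7% of Rectum cells, which should lack it. Sprr1a was found in 8.2% of Basal, 60.1% of Suprabasal and 13.1% of Anal Canal cells, and in 1.7% of Rectum cells. Anal Canal thus had Krtdap in nearly as many cells as Suprabasal but Sprr1a in far fewer. At full depth, the 10% of Anal Canal cells highest in Sprr1a held 97.0% of its UMIs, against 57.3% for the same share of Suprabasal cells. For Krtdap these were 46.5% and 40.9%. Cnfn was more concentrated still. It was found in 4.0% of thinned Anal Canal cells, and at full depth 9 of 432 cells had 5 or more UMIs, 1 of them with 335 of the cluster's 848.

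The cells with 5 or more Cnfn UMIs were set beside the other Anal Canal cells, as a description of cells picked by 1 gene. The 9 cells had a median of 11872 UMIs, the rest 8182. They held Sprr1a at 5428 CPM against 312 CPM in the rest, and in 9 of 9 cells. Sprr2a3 stood at 2651 against 174 CPM and Tgm1 at 553 against 58.6 CPM. Krt13, a keratin of wet stratified epithelia, stood at 6376 against 636 CPM, its partner Krt4 at 3412 against 784 CPM, and Crnn (cornulin) at 336 against 0.2 CPM. Krt5 (874 against 3922 CPM) and Col17a1, a basal hemidesmosome protein (0 UMIs against 292 CPM), were lower. Krt1 also stood higher, at 4928 against 2203 CPM, though it was found in 3 of the 9, and Krt10 was found in 6. The Cnfn cells thus combined SPRR genes with the keratins of a wet epithelium and less basal signal, and some of them with keratins 1 and 10 too. The cell with the fewest Cnfn UMIs, 5, had 172 UMIs of Krt10 and 0 of Krt13. Tgm3 was lower in the Cnfn cells, at 7.5 CPM against 68.3 CPM.

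Cells rich in Tgm3 were set beside the rest of the same cluster in the same way. The 22 Anal Canal cells with 5 or more Tgm3 UMIs held Krt1 at 7206 CPM against 1980 CPM in the rest and Krt10 at 8275 against 1852 CPM, and had no UMI of Krt13 or Cnfn. Krtdap (5272 against 3705 CPM), Calm4 (2741 against 1211 CPM) and Sprr1b (799 against 111 CPM) were higher in them. In cells thinned to 2000 UMIs, none of 43 cells with Tgm3 had Cnfn, against 4.52% of the cells without Tgm3, a share too low to show a difference at this number. In wounded Basal it was 1 of 86, against 4.18%. Tgm1 was found in 11 of 16 cells with Cnfn, against 9.19% of those without. Of 36 cells with Sprr1b, 8 had Tgm3 (9.7% of those without) and 2 had Cnfn (3.88% of those without). The cells rich in Tgm3 thus lacked Krt13, and those rich in Cnfn had it in 8 of 9.

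Rectum cells were no blank background for every member. Sprr2a3 stood at 312 CPM (273 to 356) in normal Rectum cells, 250 CPM (235 to 265) in Anal Canal, 12.7 in Suprabasal and 2.59 in Basal cells. One Rectum cell held 86 of the 220 UMIs and 1 Anal Canal cell 278 of 1094. Without the top cell of each, the levels were 194 (163 to 230) and 187 CPM (175 to 200), so the order of Rectum and Anal Canal rested on those cells. It was found in 21.7% of thinned Rectum cells (exact interval 12.1% to 34.2%), where Sprr1a was found in 1.7%. Against Basal, 5 of 12 members were higher in Rectum (Sprr2a1, Sprr2a3, Sprr2b, Tgm3, Casp14) and 7 lower, against 17.7% and 17.1% of all genes. The lower ones were Krtdap, Sbsn, Dmkn, Calm4, Calml3, Sprr1a and Ivl, so SPRR genes were on both sides. The 9 normal Rectum cells with 5 or more Sprr2a3 UMIs held Krt20, a keratin of mature gut epithelium, at 375 CPM against 50 CPM in the other Rectum cells, Lgals4 at 8540 against 3676 CPM and Tgm3 at 259 against 23.3 CPM, while Krtdap stood at 9.6 against 23.3 CPM. In the wounded library 47 of 397 Rectum cells were of this kind, with Krt20 at 380 against 25.4 CPM and Tgm3 at 319 against 32.4 CPM. In both libraries the Rectum cells rich in Sprr2a3 were thus richer in Krt20 and Tgm3 as well, while Krtdap in the wounded cells was alike, at 172 against 158 CPM. The Sprr2a genes are near-identical, and their summed level was 373 CPM in normal and 227 CPM in wounded Rectum cells.

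In the wounded library, Suprabasal cells again held the highest summed level, 10758 CPM, followed by 7654 CPM in Basal, 2117 CPM in Hybrid, 849 CPM in Rectum, 469 CPM in Regeneration and 355 CPM in Wound_Stress cells. Krtdap stood at 3141 CPM in Basal, 3416 in Suprabasal, 35.4 in Regeneration, 42.6 in Wound_Stress, 633 in Hybrid and 160 in Rectum cells. Sprr1a stood at 351, 1850.2, 47.4, 13.1, 257 and 61.6 CPM in the same order. Sprr1a therefore still parted Suprabasal from Basal (log2 ratio 2.4, 2.33 to 2.46), while Krtdap scarcely did (0.12, 0.10 to 0.15). Calml3, at 136 CPM in Basal and 894 CPM in Suprabasal cells, Ivl, at 5.92 and 46.2 CPM, and Sbsn, at 218 and 811 CPM, were also 2-fold or more higher in Suprabasal cells. Those were the 4 members higher, of 20 over the minimum, while 11 were lower, against 9.85% and 11.3% of all genes. The 11 lower members were Sprr1b, Sprr2a3, Sprr2d, Sprr2f, Sprr2h, Sprr3, Cnfn, Crct1, Lor, Tgm1 and Tgm3, and 9 of these 11 (all but Sprr3 and Sprr2d) were among the 16 higher in normal Anal Canal over normal Basal cells. The same overlap was not counted over all genes, so it is not read as particular to the members. Crct1 was no longer past 2-fold (-0.09) without the 1% of cells highest in it. Sprr1b, Sprr2d and Sprr3 passed the minimum through Basal cells alone, so they could only be called lower. Without its top cell, Sprr3 had 2 UMIs in wounded Basal cells. The wounded Basal cluster held the differentiation keratins given above, and their part in these ratios was not tested.

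Sprr2d was nearly confined to 1 cluster. It had 0 UMIs in normal Basal, Suprabasal and Rectum cells and 1.14 CPM in normal Anal Canal. In wounded Basal cells it stood at 551 CPM (532 to 570), against 0.26 CPM in Suprabasal, 0.15 in Regeneration, 0.27 in Wound_Stress, 0.24 in Rectum cells and 0 UMIs in Hybrid cells. The whole level came from 23 of 573 cells, 19 of which had 5 or more UMIs and 1 of which had 570. With all cells, the log2 ratio of wounded Basal to normal Anal Canal was 8.91 (7.69 to 10.54). Leaving out the 1% of cells highest in each gene left 0 UMIs in normal Anal Canal, so the ratio was then a bound, at least 8.18. Without its top cell alone, wounded Basal stood at 453 CPM. Thus the signal was in few cells of 1 cluster of 1 library, but not in a single cell.

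Cnfn in wounded Basal cells stood at 166 CPM, against 2.76 CPM in Suprabasal and 9.002 CPM in Rectum cells, and 33 of the 37 Rectum UMIs came from 1 cell. The 19 wounded Basal cells with 5 or more Cnfn UMIs (median depth 10006 UMIs, the rest 9063.5) resembled those of the normal Anal Canal in some genes and not in others. They held Sprr1a at 6407 CPM against 144 CPM in the rest, in 19 of 19 cells, Krt13 at 11669 against 1092 CPM, in 19 of 19, and Krt4 at 4973 against 612 CPM. Sprr2d stood at 14247 against 80.9 CPM and was found in 14 of the 19 cells, whereas 1 of the 9 normal cells had any, with 4 UMIs. Crct1, a cysteine-rich protein of the envelope complex, stood at 1229 against 0.5 CPM, and Flg at 242 CPM against 0 UMIs. Krt1 (194 against 2552 CPM) and Krtdap (1418 against 3200 CPM) were lower in the wounded Cnfn cells, and Krt1 was found in 1 of the 19. In the normal Cnfn cells Krt1 had been higher than in the rest. In 16 thinned cells with Sprr2d, Calm4 was found in 0 and Cnfn in 13.

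**Figure D4:**
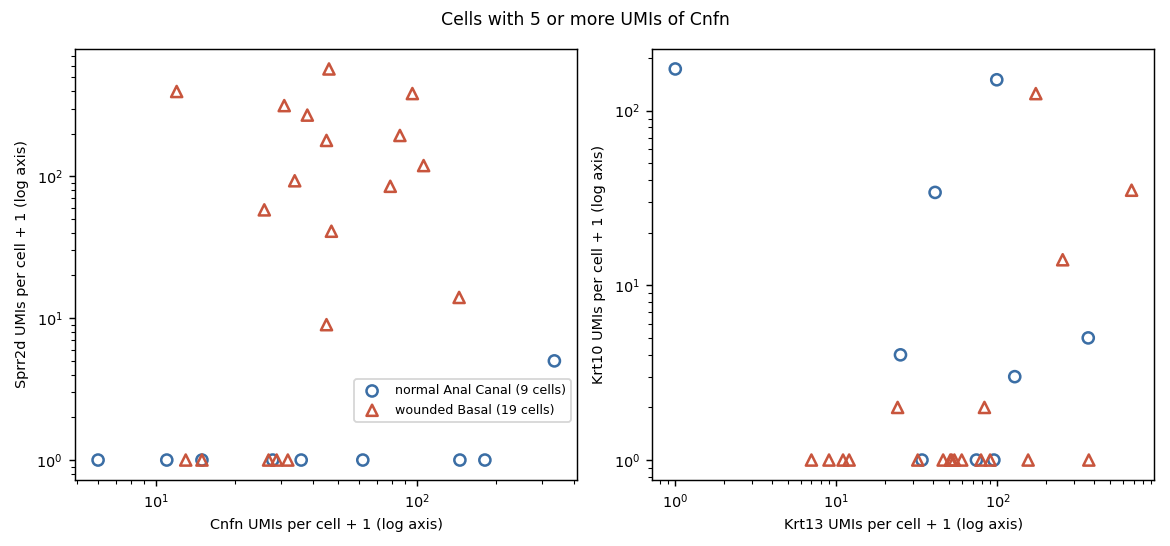
UMIs per cell (plus 1, log axes) in cells with 5 or more Cnfn UMIs, 9 of normal Anal Canal (blue circles) and 19 of wounded Basal (red triangles), for Sprr2d against Cnfn (left) and Krt10 against Krt13 (right). Sprr2d is seen in 14 of the wounded cells and 1 normal cell, and Krt10 in 5 of the wounded and 6 of the normal cells.

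Tgm3 was followed in the wounded library as well. It stood at 103 CPM in wounded Basal, 6.91 in Suprabasal, 4.38 in Regeneration, 4.15 in Wound_Stress, 28.3 in Hybrid and 71.8 in Rectum cells. The 50 wounded Basal cells with 5 or more Tgm3 UMIs held Krt1 at 6767 CPM against 1959 CPM in the rest, Krt10 at 5149 against 1609 CPM, Krt13 at 6.5 against 1615 CPM, and no UMI of Cnfn or Sprr2d. In both libraries cells rich in Tgm3 thus had little or no Krt13. Cnfn was rare in both clusters, so its absence from the cells rich in Tgm3 is not read as a difference. Among cells rich in Cnfn, Krt10 was found in 6 of 9 normal Anal Canal and 5 of 19 wounded Basal cells. Some of these had few Krt10 UMIs, 2 to 4 in normal and 1 in wounded cells. They are few cells of 1 library each, so no difference between the libraries is read from them.

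Within the Suprabasal clusters, cells with 5 or more Sprr1a UMIs were 88 of 187 in the normal and 361 of 1032 in the wounded library, and were deeper than the rest in both (medians of 14871.5 against 6720.0 and 15590.0 against 8104.0 UMIs). In the normal library they held Krtdap at 12032 against 3724 CPM. In the wounded library they held Krtdap at 6366 against 459 CPM, Calm4 at 3095 against 668 CPM and Sbsn at 1379 against 242 CPM. Cst6 (cystatin M/E), an inhibitor of the proteases that act on transglutaminases, stood at 101117 against 5233 CPM in the wounded cells, so the cells rich in Sprr1a were also rich in Cst6. The wounded Suprabasal cluster was therefore uneven. Its Krtdap was found in 41.8% of thinned cells (38.7% to 44.9%), against 86.3% (80.5% to 91.0%) in the normal library, and its top 10% of cells held 62.4% of the UMIs.

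Regeneration and Wound_Stress cells held few envelope transcripts. All 5 anal gland markers (Plin2, Scd1, Fasn, Pparg, Elovl3) were higher in both than in wounded Basal cells, summing to 2045 CPM and 883 CPM against 104 CPM, and their part in the levels was not tested. Against wounded Basal, 0 of 20 members were higher and 18 lower in Regeneration (11.8% and 13.8% of all genes), and 0 of 20 higher and 19 lower in Wound_Stress cells (10.3% and 12.8%). Here too Sprr1b, Sprr2d, Sprr3 and Cnfn passed the minimum through Basal cells alone and could only be called lower. The median log2 ratio of the members was -4.28 and -4.59, and that of all genes -0.13 and 0.03. Ivl was not called in either, at 11.3 and 8.58 CPM against 5.92 CPM in Basal. Calml3, at 83.1 CPM in Regeneration cells, was the other member not lower there by 2-fold. Against Regeneration, 14 of 15 members were higher in Suprabasal cells and 0 lower (11.6% and 9.87% of all genes), led by Calm4 (log2 ratio 7.01, 6.80 to 7.22) and Krtdap (6.59, 6.46 to 6.73). Krtdap was found in 2.9% of thinned Regeneration and 3.3% of Wound_Stress cells, below the 6.5% of Rectum cells of the same library, and is read as background there. Of the 98 Sprr1a UMIs in Wound_Stress cells, 73 came from 1 cell.

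Hybrid cells were set beside Rectum cells, since their name places them between the stratified and glandular epithelia. Of 12 members, 6 were 2-fold or more higher in Hybrid cells and 4 lower, against 13.4% and 13.9% of all genes. The 6 were the abundant stratified members: Sbsn (log2 ratio 2.70, 2.36 to 3.05), Calml3 (2.70), Dmkn (2.31), Sprr1a (2.06), Krtdap (1.98) and Calm4 (1.56). Sprr2a3 (-2.99, -3.48 to -2.55), Casp14 (-2.92), Tgm3 (-1.34) and Rptn were lower, although 1 Rectum cell held all 20 Rptn UMIs. Hybrid cells thus had more of these 6 members, and less Sprr2a3 and Tgm3, than Rectum cells. Without the 1% of cells highest in each gene, Tgm3 was no longer past 2-fold (-0.81), and neither was Calm4 (0.85) with names reassigned by profile without the members. Depth was lowest in this cluster, and 132 of its 316 cells had fewer than 2000 UMIs. Inner root sheath genes were also highest there, the 8 markers summing to 1894 CPM, with Krt25 at 723 and Krt71 at 461 CPM, against 403 CPM in wounded Basal cells. Their part in the levels was not tested. Rectum cells over Suprabasal cells of the wounded library had 5 of 17 members higher and 10 lower, against 21% and 13.9% of all genes. In wounded Rectum cells, 7 cells held 604 of the 658 Krtdap UMIs, at a median depth of 21406 UMIs against 9787 in the rest. These 7 cells held Krt1 at 3759 against 4.8 CPM and Cst6 at 19999 against 111 CPM, together with Lgals4 at 2512 against 3806 CPM. Doublets were not called, and their part was not tested.

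Same-named clusters were then compared between the libraries. In Suprabasal cells, 2 of 15 members were 2-fold or more higher in the wounded library and 4 lower, against 16.2% and 5.63% of all genes. Krtdap was lower, 3416 CPM (3383 to 3450) against 8756 CPM (8635 to 8879), a log2 ratio of -1.36 (-1.38 to -1.33), and so was Casp14, 11.3 against 26.7 CPM (-1.24, -1.69 to -0.78). Sprr1a (1850.2 and 1749 CPM), Sbsn (811 and 728 CPM) and Ivl (46.2 and 53.0 CPM) differed by less than 2-fold. Tgm1 was lower by a log2 ratio of -1.10 (-1.77 to -0.39), and Sprr2h by -2.84, with 1 normal cell holding most of its UMIs and a ratio of -0.24 without the 5% deepest cells. Flg was higher, 9.24 against 0.44 CPM, but 1 cell held 56 of the 107 UMIs. Tgm3 was at 6.91 CPM against 0 UMIs, at least 2.39 on the log2 scale. Markers of other layers and cell types also differed. Of 10 rectum markers 6 were 2-fold or more higher in wounded Suprabasal cells, with a median log2 ratio of 2.52, although the list summed to 877 CPM in the normal and 978 CPM in the wounded cluster, against 13245 and 11261 CPM in Rectum. Of 6 basal markers Krt15, Col17a1 and Itga6 were higher. Their part in the member ratios was not tested.

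In Basal cells 16 of 20 members were higher in the wounded library and 2 lower, against 15.6% and 13.6% of all genes, with a median log2 ratio of 3.34. Krtdap (4.10, 3.97 to 4.23), Calm4 (3.42), Cnfn (6.49) and Sprr2d (at least 8.96) were among them, and Ivl (-1.21) and Calml3 (-1.004) were the 2 lower. This cluster also held Krt1, Krt10 and Krt13, as given above, so a change within basal cells cannot be told apart from cells of another layer under the same name. Set against normal Anal Canal instead, 5 of 24 members were higher in wounded Basal and 7 lower, against 10.2% and 7.02% of all genes, with a median of -0.15. Krtdap (-0.27), Calm4 (0.31), Dmkn (0.15), Cnfn (-0.22) and Sprr1a (-0.41) differed by less than 2-fold. The higher members were Sprr2d, Flg (5.13), Sprr3 (3.2), Crct1 (1.94) and Sprr2f (1.21). The lower ones included Sprr1b (-4.01, -4.44 to -3.61), at 9.41 against 152 CPM, and Tgm1 (-1.81, -2.12 to -1.50). Few cells gave some of these levels. One wounded cell held 22 of 24 Sprr3 UMIs, one held 33 of 46 Flg UMIs and one held 210 of 408 Sprr2f UMIs, while 1 normal cell held 87 of 135 Sprr2f UMIs. Sprr2a1, Sprr2a2, Sprr2a3, Sprr2b and the pseudogene Sprr2j-ps were also lower. The Sprr2a genes summed to 120 CPM in wounded Basal and 281 CPM in normal Anal Canal cells.

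In Rectum cells 6 of 14 members were higher in the wounded library and 3 lower, against 11.6% and 6.41% of all genes. Krtdap (2.91), Calm4 (3.72), Calml3 (3.96), Sprr1a (3.12) and Dmkn (2.49) were higher, but without the 1% of cells highest in each gene Krtdap (0.93) and Calm4 (0.89) were no longer past 2-fold. That cut need not remove all the Krtdap-rich Rectum cells described above, so their part in the other ratios was not tested. Cnfn was the other higher member, and had 4 wounded Rectum UMIs without its top cell. Sprr2a3, at 226 against 312 CPM, and Tgm3, at 71.8 against 58.2 CPM, differed by less than 2-fold. Lor (-1.41), Sprr2a1 (-5.22) and Sprr2b (-3.63) were lower. Sprr2a1 and Sprr2b share sequence, and for them the different feature sets of the libraries cannot be told apart from the wound.

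The number of members found per cell was also counted. In cells thinned to 2000 UMIs, 3 or more members were found in 22.7% of normal Basal (17.7% to 28.4%), 91.3% of Suprabasal (86.2% to 94.9%), 52.1% of Anal Canal (47.1% to 57.1%) and 6.67% of Rectum cells (1.85% to 16.2%). In the wounded library the shares were 46.6% in Basal, 52.3% in Suprabasal (49.1% to 55.4%), 3.75% in Regeneration, 1.96% in Wound_Stress, 32.6% in Hybrid and 5.37% in Rectum cells (3.26% to 8.25%). The shares of wounded Basal and Suprabasal cells overlapped in their intervals at this depth, but at 1000 UMIs they were 33.9% (30.0% to 38%) and 44.1% (41.1% to 47.2%). At 2000 UMIs, Regeneration and Wound_Stress cells were at or below Rectum, but for Regeneration this order depended on depth. At 4000 UMIs the shares were 9.02% in Regeneration, 5.53% in Wound_Stress and 6.07% in wounded Rectum cells. The intervals of Regeneration and Rectum overlapped there. Without thinning, Regeneration stood at 35.8% (32.8% to 38.9%), Wound_Stress at 17.1% and wounded Rectum at 16.1% (12.6% to 20.1%). Those shares are not matched in depth, with medians of 12616 UMIs in Regeneration and 9991 in wounded Rectum cells. The unthinned shares were 77.1% in normal Anal Canal and 73.4% in wounded Suprabasal cells.

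**Figure D5:**
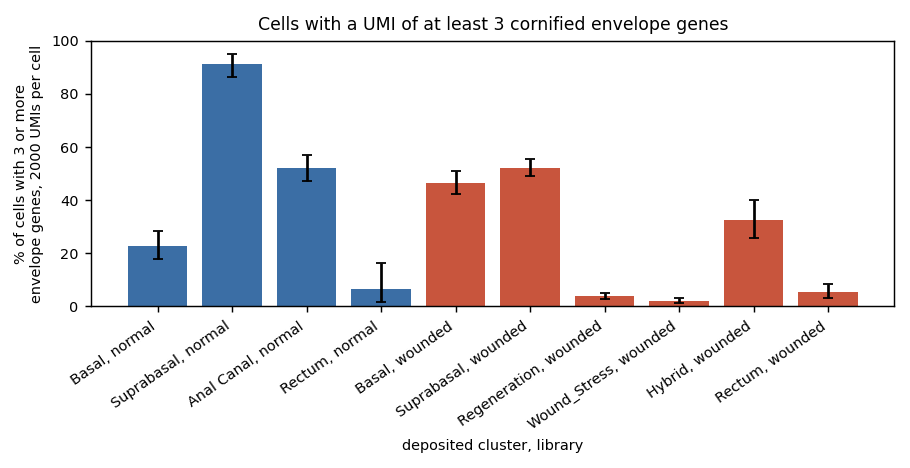
Share of cells (%, with exact Clopper-Pearson 95% intervals) with a UMI of 3 or more cornified envelope genes after thinning each cell to 2000 UMIs, in the 4 normal (blue) and 6 wounded (red) clusters. Normal Suprabasal cells reach 91.3%, and Regeneration and Wound_Stress cells are at 3.75% and 1.96%.

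Other genes of cornification were counted over a list of 33 (desmosomal plaque, protease inhibitors, kallikreins, ceramide synthesis). In normal Suprabasal over Basal cells 18 of 19 were higher and 1 lower, against 6.57% and 17.1% of all genes, and in Anal Canal over Basal 10 of 19 were higher and 2 lower, against 8.73% and 10.2%. In the wounded library Suprabasal over Basal gave both directions, 7 of 25 higher and 8 lower (9.85% and 11.3%), and Regeneration over Basal 0 of 24 higher and 19 lower (11.8% and 13.8%). Cst6 stood at 1437 CPM in normal Basal, 87277.5 CPM in Suprabasal and 231 CPM in Anal Canal cells, so that it was lower in Anal Canal than in Basal cells, the reverse of Krtdap. Anxa1, a membrane-binding protein of the envelope, stood at 869.9, 2660.3 and 1415 CPM in the same clusters, Dsp (desmoplakin) at 281, 916 and 391 CPM, and Ly6g6c at 21.1, 1018 and 45.4 CPM. These genes were highest in the Suprabasal cluster, like the secreted members and unlike Cnfn and Sprr1b.

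Of 26 regulators of late differentiation, 25 had enough UMIs in normal Suprabasal over Basal cells, and 5 were 2-fold or more higher (Grhl1, Grhl3, Ovol1, Zfp750 and Notch3) and 7 lower, against 6.57% and 17.1% of all genes. In Regeneration over wounded Basal cells, 6 of 26 were higher (Cebpa, Cebpb, Fosl1, Jun, Junb and Gata3) and 9 lower, against 11.8% and 13.8%. Jun, an AP-1 subunit, stood at 1438 CPM in normal Basal, 362 in Suprabasal and 154 in Anal Canal cells, and at 142 in wounded Basal, 809 in wounded Suprabasal and 3488 CPM in Regeneration cells. Junb stood at 1080, 252 and 259 CPM in the normal clusters and at 106, 254 and 1091 CPM in the wounded ones. Jun and Junb transcripts were thus most abundant, of these 6 clusters, in the normal Basal and Regeneration cells. Krtdap and Sprr1a were low there, while wounded Suprabasal cells had more of both Jun and Sprr1a than wounded Basal cells. Any part of AP-1 factors in member levels was not tested. Cebpb stood at 774, 480 and 141 CPM in the normal clusters and at 49.5, 173 and 525 CPM in the wounded ones, and Ehf, an ETS factor, at 143, 281 and 138 CPM and at 333, 491 and 126 CPM. Transcript levels do not measure the activity of these factors.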

How the data were processed

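The data were 2 single-cell libraries made with the 10x Genomics 3' chemistry, 1 per condition, each from pooled mice. The authors aligned reads to mm10 and made the deposited count matrices with Cell Ranger, which the submitters' processing notes give as version 3.1.0 and the wounded file's header as 4.0.0. The matrices hold whole UMI counts per gene and barcode, with 30406 features shared by both. A deposited table of each library gives 939 normal and 4147 wounded cells with their cluster names (Seurat 3.2.2) and values on a natural log scale, ln(1 + count). Only the names were used. The authors filtered cells on gene number and mitochondrial share, and removed anal gland, hair follicle and fibroblast clusters. No doublets were called here.

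Counts were summed per cluster and given per 1000000, with exact Poisson intervals, exact binomial intervals for log2 ratios, and exact Clopper-Pearson intervals for shares, all at 95% and covering counting error only. Members with at least 20 UMIs over both clusters were counted past 2-fold, and a cluster at 0 UMIs was set to 3 UMIs, giving a bound. A gene nearly absent from 1 of the clusters passed this minimum through the other, and could only be called on that side. The shares of all genes used the same minimum. For shares, each cell was thinned to 2000 UMIs. Members with 100 UMIs in either library were named, and the 4 most abundant genes of each other list. Sequences of proteins were not used here. There were 10 planned comparisons and 4 added after seeing the data (wounded Basal over normal Anal Canal, wounded Suprabasal over Regeneration, normal Rectum over Basal, wounded Rectum over Suprabasal), as were levels without the top cell. The members and lists were chosen with earlier results of these data known. The counting scripts were tested on simulated data. The barcodes held 17617944 normal and 88260050 wounded UMIs. Python 3.11.15, numpy 2.4.6, scipy 1.17.1 and pandas 2.3.3 were used.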

Additional observations from a re-analysis of the deposited data

Results flagged for a closer look

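Crct1, Sprr2a3, Sprr2h and Tgm1 had ratios of opposite sign from Basal to Suprabasal in the 2 libraries. The log2 ratio of Suprabasal to Basal was 2.68 in the normal and -1.58 in the wounded library for Crct1, 2.30 and -3.14 for Sprr2a3, at least 3.61 and -2.96 for Sprr2h, and 2.41 and -1.93 for Tgm1. The difference between libraries was not tested, since each condition had 1 library. The normal ratios of Crct1, Sprr2a3 and Sprr2h drew 11 of 27, 20 of 29 and 27 of 31 Suprabasal UMIs from 1 cell, whereas no cell held more than 3 of the 27 Tgm1 UMIs. The wounded ratio of Crct1 was -0.09 without the 1% of cells highest in it, so its call rests on those cells. The wounded Basal cluster held Krt1, Krt10 and Krt13, as given above.

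Barcodes that the deposited tables left out also held members, at 1863 CPM in the normal and 873 CPM in the wounded library. These were 1625 and 13069 barcodes with median mitochondrial shares of 48.5% and 58.3%.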

How the results depend on the processing

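Over 196 ratios past 2-fold in 14 comparisons, alternatives gave 1648 values, of which 0 changed direction and 251 moved by more than the counting interval. Of the 1648, 196 at 4-fold, 196 with no minimum and 131 at a minimum of 100 UMIs repeat the same ratio and could not move. Leaving out the 1% of cells highest in a gene moved 76 and left 76 within that interval, while the other called ratios had no value there. The mean of per-cell levels moved 60, leaving out the 5% deepest cells 44, names reassigned by profile without the members 42 and median-of-ratios scaling 27. In all, 24 values of 15 ratios fell under 2-fold, among the ratios that had a value at the setting. In wounded over normal Basal these were of Calml3 (-0.75), Ivl (-0.96) and Dmkn (0.66), in wounded over normal Suprabasal of Tgm1 (-0.91) and Sprr2h (-0.24), in wounded Basal over normal Anal Canal of Sprr2a3 (-0.55), in Wound_Stress over Basal of Calml3 and Sbsn (both -0.59) and in Suprabasal over Regeneration of Sprr2a3 (0.98) and Tgm1 (0.62), each at its nearest to 0. The others were Crct1, Krtdap, Calm4 and Tgm3, given beside their results. Scalings shifted the median gene by -0.25 to 0.27 (log2).

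Counts of members past 2-fold changed most with the minimum. The counts below join higher and lower calls, and the number of members that can be called changes with the minimum. No share of all genes was set beside them at these settings, so they describe the calls only. At 100 UMIs they were 11 for Anal Canal over Basal and 7 for Suprabasal over Basal in the normal library, 3 and 4 for wounded over normal Suprabasal and Rectum, and 7 each for wounded Basal over normal Anal Canal and normal Rectum over Basal. With no minimum, Suprabasal over Basal in the wounded library gave 23. At 4-fold, Hybrid over Rectum gave 6 and wounded over normal Suprabasal 3. Wounded over normal gave 3 in Suprabasal without the 5% deepest cells and 5 in Rectum without the 1% of cells highest in each gene. Without those highest cells the log2 ratio of Crct1 in wounded Suprabasal over Basal was -0.09 (from -1.58) and of Cnfn in normal Anal Canal over Suprabasal 2.89 (from 5.47). That of Sprr2h in normal Anal Canal over Basal, where Basal had 0 UMIs, was at least 2.53 (from at least 4.18).

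The share of cells with 3 or more members depended on depth. In normal Anal Canal and wounded Suprabasal cells it was 31.4% and 44.1% at 1000 UMIs, 70.4% and 68.1% at 4000 UMIs, and 77.1% and 73.4% without thinning. With names by profile, which kept 94.2% of normal and 90% of wounded names, it was 57.5% in wounded Suprabasal cells.

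No paired analysis was possible because each condition had 1 library. Depth and shared sequence limit the LCE genes, all under 20 UMIs over both libraries.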
